A study of Homo sapiens with 9 samples.

Results

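The AP-1 family genes examined here are FOS, FOSB, FOSL1, FOSL2, JUN, JUNB, JUND, ATF3, BATF3 and MAFF, 10 of the 20163 protein-coding genes annotated on the human assembly GRCh37. They were chosen by a readout of the same peak lists, the frequency of the AP-1 sequence in regions that both INO80 knockdown lists held and the control list lacked, so that frequency is given only as a description. Peaks overlapping the body of each gene or the 50 kb on either side were collected, which gave 71 regions out of 111260 in the whole series. Chromatin accessibility had been profiled by ATAC-seq, in which a transposase cuts and tags open DNA, in HepG2, a hepatocyte-like liver cancer line. Cells were transfected with 50 nM of the non-targeting siRNA NTG, of siINO80#1 or of siINO80#2 and were collected 72 hours later, with 3 replicates of each siRNA and 9 samples in all. Both siINO80 reagents target INO80, the ATPase of a chromatin remodeling complex, and the loss of INO80 itself was not measured, since an siRNA acts on the mRNA. A peak lay at the INO80 start site in each of the 3 lists.

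AP-1 is a dimer of basic leucine zipper proteins. Fos proteins pair with Jun proteins, Jun proteins also pair with each other, and the dimers bind the sequence TGAGTCA, which reads TGACTCA on the other strand. FOS and JUN are immediate early genes, switched on within minutes of growth factor or stress signals without new protein synthesis, and JUN is needed for hepatocytes to divide after liver injury. ATF3 is a stress-induced partner of Jun proteins, BATF3 lacks a transactivation domain and is best known from dendritic cells, and MAFF is a small Maf protein that binds related sites, mostly with partners of the NRF family.

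Some sequences that the results turn on are given first. Each was read 5′ to 3′. The first pair, from the plus strand of chromosome 14, surrounds the strongest summits of the FOS start-site region (chr14:75745130-75745329) and of a region 15.4 kb downstream of the FOS 5′ end (chr14:75760823-75761022), and is shown because these were the 2 regions of the 71 that held a CArG box, the site of serum response factor, in capitals.

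FOS start-site region: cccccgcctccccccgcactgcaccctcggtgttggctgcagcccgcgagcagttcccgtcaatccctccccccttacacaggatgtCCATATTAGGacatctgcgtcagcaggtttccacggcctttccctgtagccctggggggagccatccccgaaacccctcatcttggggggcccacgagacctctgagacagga

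FOS downstream region: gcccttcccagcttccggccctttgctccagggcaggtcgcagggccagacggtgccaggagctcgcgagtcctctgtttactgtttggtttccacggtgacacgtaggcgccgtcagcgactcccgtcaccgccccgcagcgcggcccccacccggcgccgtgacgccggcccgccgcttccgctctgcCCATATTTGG

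The first box began 312 bases upstream of the FOS 5′ end, inside the peak of each of the 3 lists, and the second likewise lay inside all 3 peaks. A CArG box was found in 1.07% of all 111260 regions within 200 bp around the strongest summit.

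The next set holds the 250 bases upstream of the RefSeq start sites of JUN (chr1:59249720-59249969, minus strand), JUND (chr19:18392433-18392682, minus strand) and FOSB (chr19:45971004-45971253, plus strand), in GRCh37 coordinates. JUN and JUND had a start-site peak in every list and FOSB in some. Capitals mark the cyclic AMP response element TGACGTCA, its core TGACGT, or the sequence TGACATCA, the AP-1-like element through which JUN is known to act on its own promoter.

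JUN promoter: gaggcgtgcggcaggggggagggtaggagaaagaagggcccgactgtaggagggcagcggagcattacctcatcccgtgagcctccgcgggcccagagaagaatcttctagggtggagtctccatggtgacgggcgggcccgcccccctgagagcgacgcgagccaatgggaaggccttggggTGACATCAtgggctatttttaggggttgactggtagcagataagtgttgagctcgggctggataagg

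JUND promoter: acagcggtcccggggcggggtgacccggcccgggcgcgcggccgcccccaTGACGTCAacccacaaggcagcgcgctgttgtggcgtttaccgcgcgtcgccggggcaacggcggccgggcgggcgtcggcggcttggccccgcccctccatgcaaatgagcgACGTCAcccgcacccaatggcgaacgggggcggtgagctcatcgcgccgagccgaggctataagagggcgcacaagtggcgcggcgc

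FOSB promoter: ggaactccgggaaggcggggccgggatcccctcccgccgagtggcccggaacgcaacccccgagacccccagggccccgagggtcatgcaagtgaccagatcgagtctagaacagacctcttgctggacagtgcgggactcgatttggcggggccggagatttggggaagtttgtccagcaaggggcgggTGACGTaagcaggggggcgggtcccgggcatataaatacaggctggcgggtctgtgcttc

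MAFF site: ggccgggtcggTGACGTCAccgcatgactg

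The MAFF line is a 30-base stretch (chr22:38597936-38597965, plus strand) with the TGACGTCA that began 54 bases upstream of a RefSeq start site. RefSeq promoters (build GRCh38.p14, 300 bases each, from 250 upstream to 50 downstream) were given for 8 of the 10 genes, 10 promoters in all, and each matched GRCh37 once. TGACGT, searched on both strands, was in 5 of the 10 promoters (FOS, FOSB, FOSL2, JUND and MAFF) and in 7.98% of all 35116 RefSeq promoters, whereas the longer TGACGTCA, which contains it, was in those of JUND and MAFF and in 1.85% of all. TGACATCA was in 2 of the 10, JUN and ATF3, and in 2.61% of all. The AP-1 sequence itself was in 1 of the 10, that of FOSL2, in the 50 bases after the start, and in 4.95% of all. The core and the JUN element were searched after the sequences had been seen.

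The last set holds 200 bp around the strongest summits of 2 regions downstream of JUN that all 3 lists held (chr1:59193159-59193358 and chr1:59221173-59221372, AP-1 motif in capitals) and of 2 regions that both siINO80 lists held and NTG lacked (chr11:65670441-65670640 near FOSL1 and chr19:45946916-45947115 near FOSB, no AP-1 motif), all from the plus strand. The label gained means only a peak in both siINO80 lists and none in NTG, whose signal there is not known.

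JUN far downstream region: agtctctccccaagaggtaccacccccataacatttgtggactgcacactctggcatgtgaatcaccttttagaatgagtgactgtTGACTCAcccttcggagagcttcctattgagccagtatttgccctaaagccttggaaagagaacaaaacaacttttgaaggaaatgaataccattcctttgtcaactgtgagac

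JUN near downstream region: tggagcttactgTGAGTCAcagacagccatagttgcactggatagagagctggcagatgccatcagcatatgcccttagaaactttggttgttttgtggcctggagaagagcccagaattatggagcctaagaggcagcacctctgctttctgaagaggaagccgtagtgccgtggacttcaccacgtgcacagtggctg

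FOSL1 gained region: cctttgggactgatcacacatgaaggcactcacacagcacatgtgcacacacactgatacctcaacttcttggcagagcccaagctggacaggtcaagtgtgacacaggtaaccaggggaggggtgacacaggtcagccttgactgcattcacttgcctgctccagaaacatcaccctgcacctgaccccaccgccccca

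FOSB gained region: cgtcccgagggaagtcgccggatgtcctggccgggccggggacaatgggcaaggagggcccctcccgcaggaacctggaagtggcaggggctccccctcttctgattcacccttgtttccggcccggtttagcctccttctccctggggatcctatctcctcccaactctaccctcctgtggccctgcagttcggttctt

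The lists held 69730 peaks for NTG, 69333 for siINO80#1 and 53113 for siINO80#2. Each list was made from the 3 replicates together, so there is no spread between replicates, and every comparison below is a description of 3 lists without a test. The intervals given are 95% intervals that cover counting error only. The read numbers implied by the lists were 1.43 and 1.44 times that of NTG for siINO80#1 and siINO80#2, yet the siINO80#2 list was the shortest. Of 10 hepatocyte markers examined, 10 had a start-site peak in NTG, 9 in siINO80#1 and 8 in siINO80#2, where ALB and AFP had none.

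Most members had accessible chromatin at a start site in every list. A start-site peak is one with a summit within 1 kb of an annotated start site of the gene. The fold enrichment of a peak was taken as summit reads over the background of its list, with 1 added to each. A start-site peak was held by 8 members in NTG, 9 in siINO80#1 and 7 in siINO80#2, against 60.8%, 60.4% and 53.7% of all protein-coding genes. The 7 members FOS, FOSL1, FOSL2, JUN, JUND, ATF3 and BATF3 had one in all 3 lists, as had 51.3% of protein-coding genes. FOSB had one in NTG and siINO80#1, MAFF in siINO80#1 alone, and JUNB in none. At a −log10 q of at least 5, the lists kept the start-site peaks of 6 members in NTG, 7 in siINO80#1 and 3 in siINO80#2 (FOSL2, JUN and ATF3), against 50.3%, 50.6% and 42.5% of protein-coding genes. No member had one with both siRNAs against INO80 but without one in the control, and no member had one in NTG alone, patterns found in 0.942% and 3.2% of protein-coding genes, so that 0 of 10 stands near the background. In these bulk samples, fewer cells with an open site and a less open site in every cell cannot be told apart. The share of protein-coding genes with a start-site peak in NTG also varied by chromosome, from 46.7% on chromosome 22, which holds MAFF, and 47.2% on chromosome 19, which holds FOSB, JUNB and JUND, to 74.1% on chromosome 2, which holds FOSL2, and the part of this in the members' values was not tested.

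**Figure D1:**
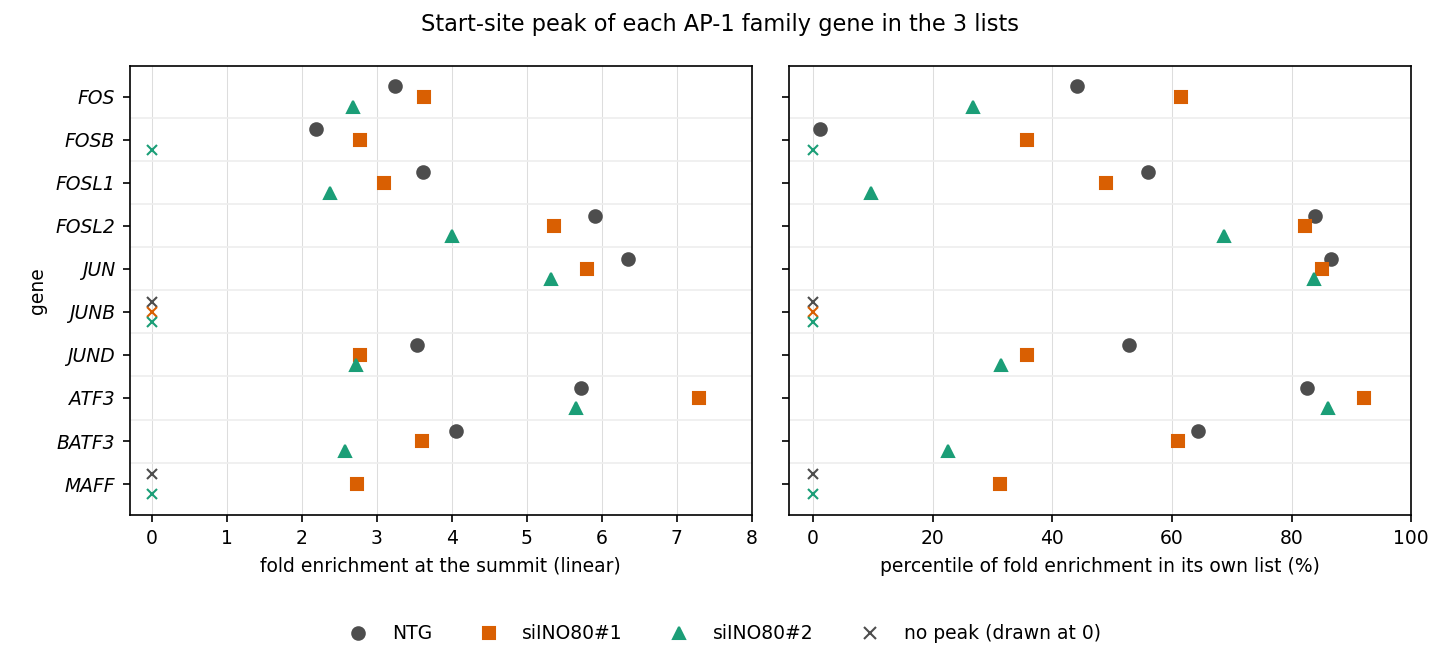
Start-site peak of each gene, with fold enrichment on a linear axis (left) and the percentile of that fold enrichment among all peaks of the same list (right); circles are NTG, squares siINO80#1, triangles siINO80#2, and crosses at 0 mark lists without a peak. FOSL2, JUN and ATF3 stood highest in all 3 lists, and the siINO80#2 triangles of FOSL1 and BATF3 stood at 9.72% and 22.6%.

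Among the Fos genes, FOSL2, which encodes Fra-2, had the strongest start-site peak, with a fold enrichment of 5.91 in NTG, which was 5.37 in siINO80#1 and 4.01 in siINO80#2. Its summits held 98, 107 and 76 reads. The peak of FOS was weaker, at 3.24, 3.63 and 2.68, with 22, 38 and 29 reads. Its extent differed between lists more than its height. The NTG peak was 185 bp wide and ended upstream of the 300-base RefSeq promoter, whereas the peaks of 463 bp in siINO80#1 and 559 bp in siINO80#2 reached into it, and the summit lay 296, 299 and 120 bp upstream of the 5′ end. FOSL1, which encodes Fra-1, a Fos protein linked to invasive tumor cells, went from 3.61 in NTG to 3.10 and 2.37, with 31, 33 and 23 reads. FOSB had the weakest peak of the family in NTG, 2.18 with 19 reads, then 2.77 with 32 reads in siINO80#1 and none in siINO80#2. That peak lay 1404 bp past the FOSB 5′ end in NTG and 1396 bp in siINO80#1, at an internal start site, and no list had a peak over the FOSB promoter printed above.

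In JUN and JUND the fold enrichment of the start-site peak differed by less than 1.5 times between lists. JUN, the main partner of Fos proteins, had 6.35 in NTG, then 5.80 and 5.32 in the siINO80#1 and siINO80#2 lists, with 93, 88 and 81 reads, and its peak covered the TGACATCA element in all 3. Only its width changed by more than 1.5 times, from 1295 bp in NTG to 1082 and 621 bp. JUND, a Jun gene that is active in unstimulated cells, had 3.53, 2.77 and 2.73 with 35, 34 and 31 reads, over the TGACGTCA element. JUNB, often a counterpart of JUN in cell cycle control, had no peak within 1 kb of its start site, although one lay 2.24 kb past the 5′ end in NTG (fold enrichment 2.46) and in no siINO80 list.

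ATF3 was the member whose start-site peak was higher in its list's ranking with both siRNAs. The peak lay at an internal promoter, 43.1 kb past the 5′ end of the gene record, with fold enrichments of 5.72, 7.29 and 5.65 and 57, 99 and 69 reads, in the order NTG, siINO80#1, siINO80#2. The 2 RefSeq promoters of ATF3 in the table used lay elsewhere and overlapped no peak. BATF3 went from 4.06 in NTG to 3.60 and 2.57, with 26, 30 and 19 reads. MAFF had its peak of 2.74, with 29 reads, over the TGACGTCA of the site printed above, in siINO80#1 alone.

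Each start-site peak was also ranked by fold enrichment within its own list. The start-site peaks of JUN stood at percentiles of 86.6, 85.1 and 83.8 in NTG, siINO80#1 and siINO80#2, those of FOSL2 at 83.9, 82.3 and 68.8, and those of ATF3 at 82.6, 92.1 and 86.2. FOS stood at 44.1, 61.4 and 26.8, JUND at 52.8, 35.8 and 31.4, BATF3 at 64.4, 61.1 and 22.6, and FOSL1 at 56.0, 49.0 and 9.72. Over the 7 members with a peak in every list the medians were 64.4, 61.4 and 31.4, below those of 84.2, 83.6 and 77.7 over the 10335 protein-coding genes with a peak in every list. With siINO80#2 the percentile was lower than in NTG for 6 of the 7 members, with a median shift of −17.4 points, beside 69.8% and −3.82 points for protein-coding genes. With siINO80#1 it was lower for 5 of the 7, with a median of −1.55 points, beside 52.6% and −0.245. Between the 5th and 95th percentiles, the siINO80#2 shifts of protein-coding genes ran from −41.3 to 11.7 points. The members also began at a lower median in NTG, 64.4 against 84.2, and genes of like starting percentile were not compared. The siINO80#2 list is the shortest, and the part of its length in these shifts was not tested.

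The related bZIP genes and the genes that act on FOS and JUN were looked at in the same way. Of 30 further bZIP genes, which include the ATF, CREB, C/EBP, Maf and NRF families, 26 had a start-site peak in NTG, 27 in siINO80#1 and 22 in siINO80#2, and 20 had one in all 3. NFE2 was the only one of them with a peak in each of the siINO80 lists and none in NTG, and MAFK, a small Maf gene like MAFF, the only one in NTG alone. Of 10 genes that act on FOS and JUN or share their regulation (SRF, 3 ternary complex factors, 5 MAP kinases and EGR1), 7, 8 and 7 had one. These counts stood close to those of the members, 8, 9 and 7 of 10. Among all protein-coding genes, 60.8% had a start-site peak in NTG, 60.4% in siINO80#1, 53.7% in siINO80#2 and 51.3% in all 3. The patterns of NFE2 and MAFK were found in 0.942% and 3.2% of protein-coding genes.

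The regions around the genes were mostly shared between lists or found in NTG. Merging overlapping peaks of the 3 lists gave 28 regions held by all 3, 20 by NTG alone, 9 by NTG and siINO80#1, 9 by siINO80#1 alone, 3 by both siINO80 lists and not NTG, 1 by NTG and siINO80#2 and 1 by siINO80#2 alone. In shares, all 3 lists held 39.4% of the member regions (28.9 to 51.1, n = 71) against 26.8% of all regions. NTG alone held 28.2% (19 to 39.5) against 24.4%, and both siINO80 lists without NTG held 4.23% (1.45 to 11.7) against 5.19%. Near the genes the share with both siINO80 lists thus stood at the background, within its counting error. For NTG with siINO80#1 the share was 12.7% against 7.64%, for NTG with siINO80#2 1.41% against 2.62%, for siINO80#1 alone 12.7% against 21.6%, and for siINO80#2 alone 1.41% (0.249 to 7.56) against 11.7%. The share held by all 3 lists was above the background and that of siINO80#2 alone below it by more than counting error. With every list cut to the size of the shortest, the first still was, at 45.5% (33 to 58.5) against 30.2%, whereas siINO80#2 alone held 9.09% (3.95 to 19.6) against 17.7%. Among the 38 member regions distal to any start site, the share held by all 3 lists was 28.9% (17 to 44.8), beside 20.0% of all distal regions, so there the background fell within the interval. All 3 lists held 7 of the 11 regions at a member's start site and 10 of the 22 at another gene's start site. Genome-wide they held 11979 of the 21943 regions within 1 kb of a start site, while 89317 regions were distal. Start-site regions were thus more frequent among the member regions, and their part in the share held by all 3 lists was not tested.

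**Figure D2:**
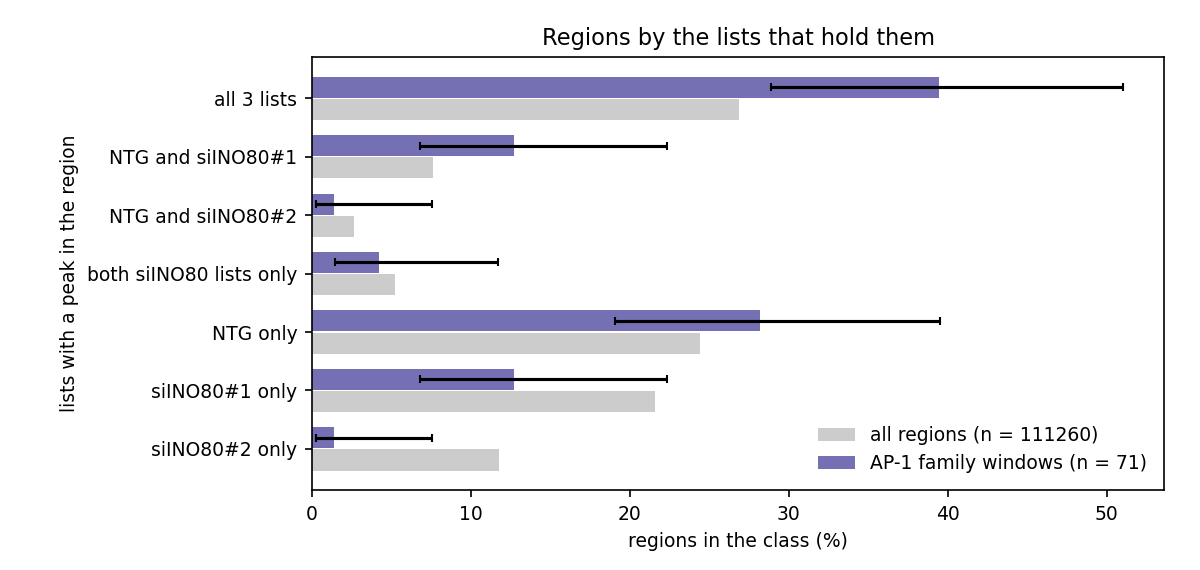
Share of regions by the lists with a peak in them, as percent of the 71 regions in the AP-1 family windows (purple, with 95% Wilson intervals) and of all 111260 regions (grey). The share held by both siINO80 lists only was 4.23% against 5.19%, and that held by all 3 lists 39.4% against 26.8%.

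Counted as peaks, the windows held 59 in NTG, 49 in siINO80#1 and 33 in siINO80#2. JUN had the densest window, with 13 regions or 12.1 per 100 kb, followed by FOSL1 with 12 regions or 11.1 per 100 kb. FOSB had 8 regions, FOS, JUND, ATF3 and BATF3 had 7 each, FOSL2 and MAFF 5 each, and JUNB 2, or 1.96 per 100 kb, while the median window of protein-coding genes held 3.94 per 100 kb. The windows of ATF3 and BATF3 overlap, and 2 regions were counted in both. Of the 71 regions, 11 lay at a start site of a member, 22 at a start site of another gene and 38 were distal.

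**Figure D3:**
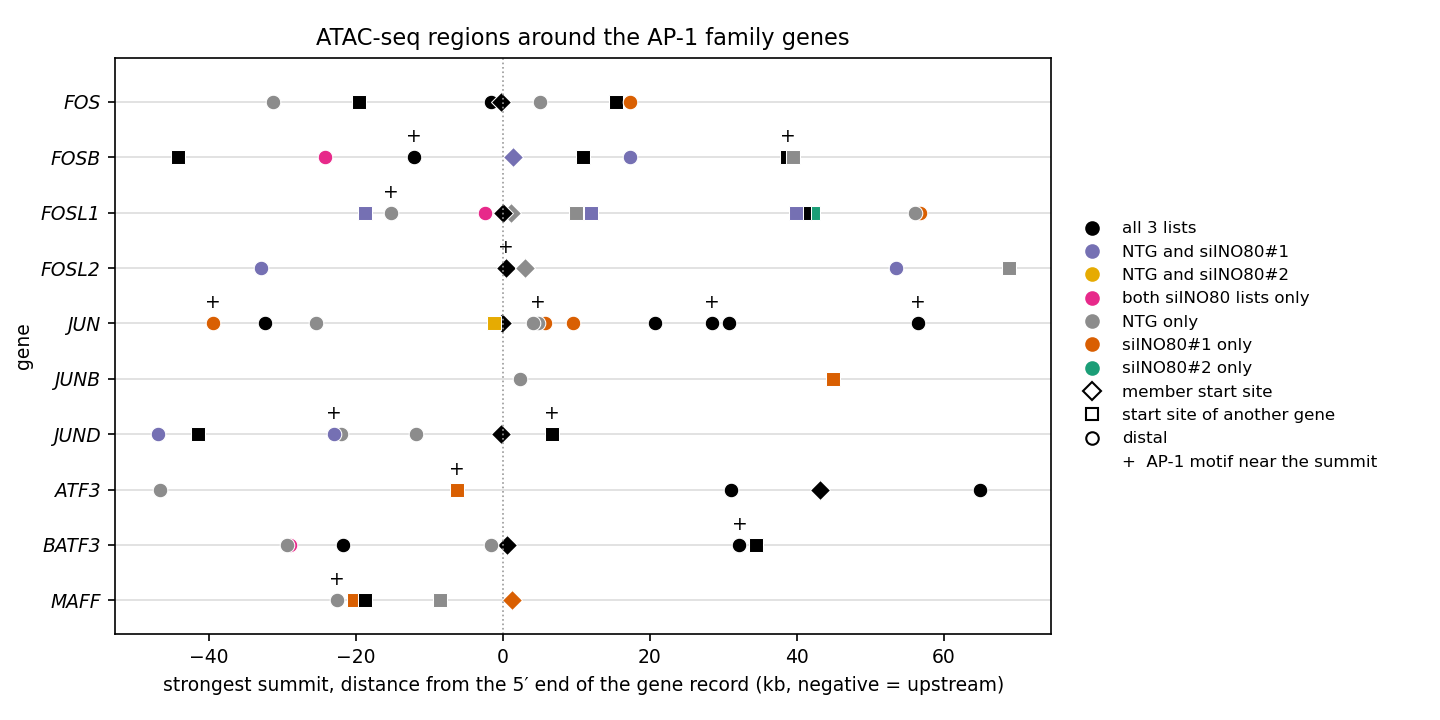
Position of the strongest summit of each of the 71 regions, in kb from the 5′ end of the gene record (negative values are upstream), coloured by the lists that held it; diamonds are start sites of the member, squares start sites of other genes, circles distal regions, and a plus sign marks an AP-1 motif. JUN had the densest row, and the 3 regions of both siINO80 lists only lay upstream of FOSB, FOSL1 and BATF3.

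The 3 regions that the siINO80 lists shared and NTG lacked were weak peaks. One lay 29.0 kb upstream of BATF3 in an exon of NSL1 (chr1:212901999-212902241), with fold enrichments of 2.60 in siINO80#1 and 2.84 in siINO80#2. Another lay 2.5 kb upstream of FOSL1, outside any gene (chr11:65670467-65670809), with 2.18 in both lists and 21 and 20 reads. The last lay 24.2 kb upstream of FOSB, in an intron of the repair gene ERCC1 (chr19:45946890-45947049), with 2.26 and 2.61 and 25 and 28 reads. None of the 3 held TGAGTCA or TGACTCA in the 200 bp around its summit, while 32.0% of the 5778 regions of this class genome-wide did, and 3 regions are too few to tell these shares apart. That genome-wide share is the value the members were chosen on.

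Over all classes the AP-1 motif was in 13 of the 71 member regions, 18.3% (11 to 28.9), beside 11.9% of all regions, and in 9 of the 38 distal ones, 23.7% (13.0 to 39.2), beside 13.0%. Both background shares fell within the intervals. By class, 7 of the 28 regions held by all 3 lists had it (16.8% of that class genome-wide), 3 of the 20 held by NTG alone (5.13%), 2 of the 9 held by siINO80#1 alone (10.5%) and 1 of the 9 held by NTG and siINO80#1 (8.72%). JUN had 4 of the 13 in its window, and FOS had none.

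Among the 20 regions found in NTG alone, 14 were distal. The 5 of highest fold enrichment lay 46.6 kb upstream of the ATF3 5′ end (3.89, 26 reads), 22.6 kb upstream of MAFF (3.59, 24 reads, with 1 AP-1 motif), 25.5 kb upstream of JUN (3.41, 19 reads), 15.2 kb upstream of FOSL1 (3.38, 32 reads, with 2 AP-1 motifs) and 1.65 kb upstream of BATF3 (3.17, 20 reads). Secondary start-site regions of FOSL1 (2.76) and FOSL2 (2.06) were likewise found in NTG alone.

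For the 28 regions that all 3 lists held, fold enrichment was compared between lists after the log2 changes were centred on the median of the 29863 regions shared genome-wide, which was −0.07 for siINO80#1 and −0.26 for siINO80#2. No member region was at least 1.5 times higher than NTG with both siRNAs, beside 3.92% of all shared regions, and 1 was at least 1.5 times lower with both, beside 2.56%. With 28 regions, a count of 0 allows a share of up to 10.7%. Of the genome-wide regions that were higher with both, 51.3% held an AP-1 motif, against 5.75% of those that were lower and 15.6% of the rest. The 7 member regions with the motif were all among those that were neither, as were 27 of the 28 member regions and 27927 of the 29863 shared genome-wide. So few regions cannot be told apart from the genome-wide pattern.

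**Figure D4:**
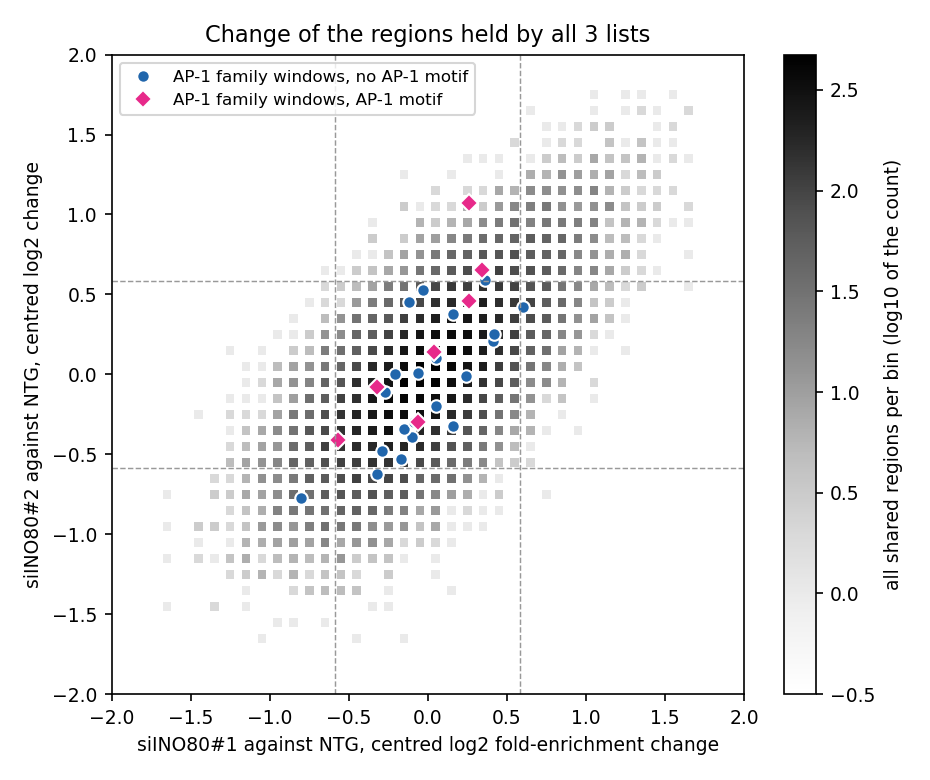
Centred log2 change of fold enrichment against NTG for the regions held by all 3 lists, siINO80#1 on the horizontal and siINO80#2 on the vertical axis; grey squares are bins of all 29863 shared regions, coloured points the 28 member regions, pink diamonds those with an AP-1 motif, and dashed lines mark 1.5-fold. No member region lay beyond 1.5-fold upward on both axes and 1 lay beyond it downward.

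Several regions lay downstream of JUN, in introns of the long non-coding gene ENSG00000283445. The one 56.5 kb past the JUN 5′ end had fold enrichments of 4.98, 5.69 and 8.68 in NTG, siINO80#1 and siINO80#2, with 23, 34 and 54 reads. Its change was 0.26 with siINO80#1 and 1.07 with siINO80#2 on the log2 scale, so it was high with siINO80#2. The one 28.4 kb past the 5′ end had 3.94, 4.74 and 5.15 with 21, 35 and 44 reads, and changes of 0.34 and 0.65. Both held an AP-1 motif, as printed above. Another, 20.7 kb past the 5′ end and without the motif, had 3.74, 4.55 and 4.68, with 17, 27 and 31 reads and changes of 0.36 and 0.59. The fold enrichment of these 3 regions was lowest in NTG and highest in siINO80#2. A further shared region in the same introns, 30.7 kb past the 5′ end, had 3.28, 3.48 and 2.19, with changes of 0.16 and −0.32, and so was lowest in siINO80#2. A region 4.74 kb past the 5′ end, placed in a JUN intron by the annotation used, was held by NTG alone (2.11). Its AP-1 motif lay in the 200 bp around the summit but just outside the peak. The JUN start-site region changed by −0.06 and 0.01.

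The ratio of summit reads gives the precision of these values. Centred on the median ratio of shared regions, it was 0.27 (−0.53 to 1.10) with siINO80#1 and 1.16 (0.44 to 1.94) with siINO80#2 for the JUN region at 56.5 kb, and 0.45 (−0.37 to 1.3) and 1.00 (0.22 to 1.82) for that at 28.4 kb. On this scale the siINO80#2 values were above 0 by more than counting error and the siINO80#1 values were not. The median ratio was 1.22 for siINO80#1 and 1.05 for siINO80#2, below the implied read numbers of 1.43 and 1.44 times NTG. Whether the siINO80#2 values stay above 0 when scaled by the implied read numbers was not tested. At the FOSL1 start site the ratios were −0.20 (−0.95 to 0.56) with siINO80#1 and −0.50 (−1.34 to 0.33) with siINO80#2. At the BATF3 start site they were −0.08 (−0.89 to 0.73) and −0.52 (−1.45 to 0.39), so the intervals of both genes included 0. Of the 56 such intervals over 28 regions and 2 siRNAs, 6 excluded 0, without adjustment for their number. The share over all shared regions was not computed, so this count cannot be read as particular to these genes.

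The FOS locus held changes in both directions. A region 19.7 kb upstream of FOS, at the start sites of the long non-coding genes ENSG00000258820 and ENSG00000289340, was the member region that was lower with both siRNAs, with fold enrichments of 8.42, 4.61 and 4.11 and 50, 37 and 33 reads. Its change was −0.80 with siINO80#1 and −0.77 with siINO80#2, and the read ratios were −0.72 (−1.38 to −0.08) and −0.67 (−1.35 to −0.004). The strongest distal region near FOS that all 3 lists held, 1.63 kb upstream, had 4.58, 3.49 and 2.48, with changes of −0.32 and −0.62. On the other side, the region 15.4 kb downstream, at the start site of LINC01220, which held the second CArG box, had 4.43, 6.38 and 4.93 with 31, 60 and 48 reads. Its changes were 0.60 and 0.42, and the read ratios were 0.66 (0.01 to 1.34) and 0.56 (−0.12 to 1.26). FOS itself, between these regions, changed by 0.24 and −0.01.

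**Figure D5:**
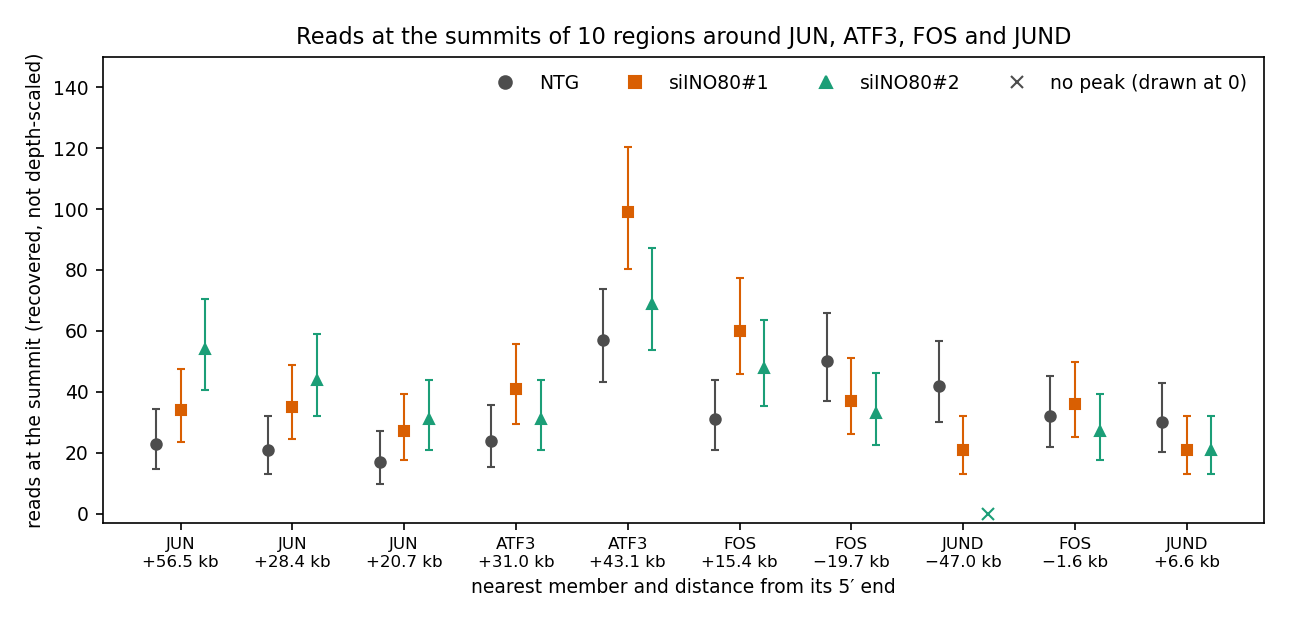
Reads at the summit, recovered from the peak lists and not scaled for depth, with 95% Poisson intervals, for 10 regions near JUN, ATF3, FOS and JUND in NTG (circles), siINO80#1 (squares) and siINO80#2 (triangles); a cross at 0 marks a list without a peak. The JUN region at 56.5 kb had 23, 34 and 54 reads and the FOS region at −19.7 kb 50, 37 and 33.

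Around ATF3, the start-site region and an intronic region 31.0 kb past the 5′ end had similar changes. A shared distal region 64.9 kb past the 5′ end went the other way, with changes of −0.29 and −0.48. The regions shared with the BATF3 window changed by 0.05 and −0.20, and by 0.26 and 0.46. The intronic region, the strongest distal one near ATF3, had 4.96, 6.25 and 4.78 with 24, 41 and 31 reads, and its changes of 0.41 and 0.21 were close to those of the start site, 0.42 and 0.25. The read ratio at the ATF3 start site was 0.51 (0.02 to 1.00) with siINO80#1 and 0.21 (−0.32 to 0.74) with siINO80#2. Those of the intronic region, 0.48 (−0.28 to 1.27) and 0.30 (−0.51 to 1.13), both included 0. The strongest distal region near BATF3, 21.8 kb upstream, had 6.72, 7.15 and 7.26, and that near FOSB, 12.1 kb upstream with an AP-1 motif, had 3.13, 2.38 and 2.47.

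Around JUND some regions were lower in the siINO80 lists, while the JUND start-site region changed by −0.27 and −0.11. The shared region at the LSM4 start site, 41.5 kb upstream, changed by −0.21 and 0.00. Its read ratios were −0.20 (−0.93 to 0.53) and −0.02 (−0.76 to 0.71). A region 47 kb upstream had a fold enrichment of 7.01 with 42 reads in NTG, 2.72 with 21 reads in siINO80#1 and no peak in siINO80#2. A region 6.61 kb downstream of the JUND 5′ end, at a start site of IQCN and with an AP-1 motif, had 3.42, 2.19 and 2.14, with changes of −0.57 and −0.41. The siINO80#1 peak (chr19:18385736-18385888) and the siINO80#2 peak (chr19:18385305-18385554) did not overlap and were joined only by the NTG peak. The siINO80#2 peak did not reach the motif, so its values come from another part of the region. Another AP-1 motif region, 23.1 kb upstream, had 3.92 in NTG and 2.67 in siINO80#1 and no peak in siINO80#2. The read ratios of the IQCN region, −0.80 (−1.68 to 0.05) and −0.58 (−1.46 to 0.27), did not differ from 0 by more than counting error.

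Few regions lay close to the limit of 50 kb. The nearest inside were those 48704 bp beyond the JUN body (the region at 56.5 kb) and 47980 bp beyond FOSL1, found in siINO80#1 alone. The nearest outside lay 53536 bp from FOSL2, in siINO80#1 alone, and 54015 bp from JUNB, in all 3 lists.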

How the data were processed

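The 3 peak lists, each made by the authors from the 3 replicates of 1 siRNA, were used as deposited. Per the submitters' notes the build is hg19 and the tools named are Trim Galore 0.4.1, Bowtie2, SAMtools, MACS2 and deepTools 2.2.4, with no role given for any of them, and the handling of the transposase offset is not given in the sources used here. The fold enrichment is a ratio that the authors deposited for each peak, and p and q were given on a −log10 scale in the deposited lists, the lowest −log10 q being 1.3 in each list. Whole reads at each summit were recovered by solving fold enrichment and −log10 p together under the formulas of MACS2, which left −log10 p off by no more than 5.91e-05 for the members.

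Several summits within an interval counted as 1 peak. Intervals of the 3 lists that overlapped by at least 1 bp were merged into regions, and each region fell in 1 of 7 classes. Start sites came from GENCODE release 44 lifted to GRCh37. Percentiles rank a peak by fold enrichment within its list. The motif window was 200 bp around the strongest summit, on both strands. Intervals were Wilson for shares, Poisson for reads and exact conditional for read ratios, all at 95%. No p-value is given, since each siRNA had 1 list.

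The members and gene lists were chosen with earlier results of these data known. A list of markers of other cell types is not reported here. The regions named by rule were all members' start-site regions, the regions of both siINO80 lists only, the 5 strongest distal NTG regions, and the strongest distal shared region per gene. The other regions and the sequences printed, except the FOSB and MAFF promoters, were chosen after their values were seen. Alternatives are given at the end. Recovery of reads, classes, merging and motif search were tested on 2000 simulated peaks, 1400 regions, 241 intervals and 1000 sequences and returned the known answer in 100%. The tools bedtools 2.31.1, samtools 1.23.1, matplotlib 3.10.9, pysam 0.24.0, scipy 1.17.1, pandas 2.3.3, numpy 2.4.6 and Python 3.11.15 were used.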

Additional observations from a re-analysis of the deposited data

Results flagged for a closer look

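With siINO80#1 the start-site peak of FOS ranked 17.3 points higher in its list than in NTG, and with siINO80#2 its rank fell by 17.35 points, so the ranks shifted in opposite directions. This difference was not tested, since each siRNA had 1 list, and ranks come from lists of different length. The centred log2 changes of fold enrichment were 0.24 and −0.01, and the centred log2 read ratios 0.50 (−0.30 to 1.33) and 0.33 (−0.52 to 1.2), both of which include 0. The number of members with a start-site peak likewise differed from NTG by 1 with siINO80#1, through MAFF, and by −1 with siINO80#2, through FOSB, again without a test.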

How the results depend on the processing

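No paired analysis was possible because the 3 replicates of an siRNA share 1 list, and for the same reason no replicate could be left out. With a −log10 q of at least 5 the peaks fell to 30 in NTG, 25 in siINO80#1 and 14 in siINO80#2. The members with a start-site peak in siINO80#2 then numbered 3, and the regions were 13 in all 3 lists, 9 in NTG alone, 1 in both siINO80 lists only, 3 in siINO80#1 alone, 0 in NTG with siINO80#2 and 0 in siINO80#2 alone. At equal list size they were 4 in NTG with siINO80#1, 2 in NTG with siINO80#2, 1 in both siINO80 lists only, 13 in NTG alone, and 5 in each single siINO80 list. In windows of 10 kb the peaks numbered 24, 19 and 14, and the regions 12 in all 3 lists, 2 in NTG with siINO80#1, 9 in NTG alone, 4 in siINO80#1 alone, 1 in both siINO80 lists only and 0 in siINO80#2 alone. In windows of 100 kb the siINO80 peaks numbered 76 and 51, and the regions 43 in all 3 lists, 14 in NTG with siINO80#1, 14 in siINO80#1 alone, 5 in both siINO80 lists only and 2 in siINO80#2 alone. Merging peaks within 500 bp left 0 regions in NTG with siINO80#2. By construction these settings take in fewer or more peaks. The shares held by both siINO80 lists only (1.82% to 4.90%) and by NTG alone (22.5% to 31.0%) stayed within the counting error of the values reported under all 5 settings tried, and no region of both siINO80 lists only held an AP-1 motif under any of 7. Ranked by −log10 q, the members' median percentiles were 68.1, 68.8 and 48.2, and the cause was not tested. At a limit of 1.2-fold, chosen after seeing the data, 4 of the 28 shared regions were higher and 4 lower with both siRNAs. Of all shared regions, 14.8% were higher and 14.1% lower at that limit, so the member counts stood near the background. At 2-fold 0 were lower, beside 0.164% of all shared regions. Several summits rested on under 25 reads, and the part of depth in the weak peaks was not tested.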
